A study of Homo sapiens with 132 samples.

Results

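Afatinib changed gene expression in both MKN7 and MKN1 cells after 24 h, and the size or direction of the change differed between the lines for 1396 genes. The genes came from the contrast of the afatinib effect in MKN7 cells (afatinib minus untreated) minus the same effect in MKN1 cells, over all genes tested, in 12 of the 132 libraries of the series. MKN7 and MKN1 are established gastric cancer cell lines derived from metastatic sites, and both were grown in RPMI medium with FCS. The groups were MKN7 cells left untreated, MKN7 cells treated with 0.5 µM afatinib, MKN1 cells left untreated and MKN1 cells treated with 0.5 µM afatinib, each for 24 h and with 3 replicates. RNA was sequenced after mRNA purification, and the authors deposited the number of reads counted on each Ensembl gene identifier. Each response is that of 1 cell line, so the line cannot be told apart from any other feature in which MKN7 and MKN1 differ. The controls were untreated cells and not cells with the solvent of afatinib, and the effect of the solvent cannot be told apart from that of the drug. The labels do not say whether replicates were separate cultures, so p-values measure only the spread between these samples, which may be technical.

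Afatinib is an inhibitor that binds covalently to the kinase domains of the ERBB family, the receptor tyrosine kinases EGFR, HER2 (gene ERBB2) and HER4, and thereby also blocks signals through HER3, which has little kinase activity of its own. The receptors pair after binding EGF-like ligands or, for HER2, without a ligand, and pass the signal to the MAPK and the PI3K cascades. MAPK activity raises feedback inhibitors such as the dual specificity phosphatases and the Sprouty and SPRED proteins, while PI3K and AKT keep FOXO transcription factors out of the nucleus. YAP is a transcriptional coactivator that binds TEAD factors on DNA, is held back by the Hippo kinases LATS1 and LATS2 and responds to cell contact, tension and growth factors.

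Total counts per library ranged from 42367058 to 58122812 (median 50116590), and 98.1% of them lay on protein-coding genes. Levels are given as CPM, the count scaled by the library total and the TMM factor. The detection floor of 3 counts was equal to 0.0516 to 0.0708 CPM, which covers counting error only. Values of a gene are listed in the order of replicates 1 to 3, and where a pair of value lists is given for a line, the first is of untreated and the second of afatinib-treated cells. Differences between the lines are on the log2 scale, and counts of list members refer to those that passed the filter on low counts. Keratin genes were high in both lines, and the summed level of EPCAM, KRT8, KRT18, KRT19 and CDH1 was 5804 to 6563 CPM in untreated and 4420 to 5152 CPM in afatinib-treated MKN7 cells. In MKN1 cells it was 17827 to 19135 CPM and 16684 to 18952 CPM. Not every epithelial marker was high in both lines, since CDH1 (E-cadherin, the adhesion protein of epithelial junctions) was at 3.24, 2.27 and 2.44 CPM in untreated MKN1 cells against 259.7, 291 and 258 CPM in untreated MKN7 cells. The 13 markers of blood, endothelial, stromal and endocrine cells summed to 16.7 to 23.4 CPM and 25.4 to 31.0 CPM in MKN7 cells without and with afatinib, and to 43.7 to 56.3 CPM and 59.5 to 86.2 CPM in MKN1 cells. CD68 was at 0 in all 4 groups, HBB in all but afatinib-treated MKN1 cells, DCN in untreated MKN7 cells and CD3E in afatinib-treated MKN1 cells. The sum of these markers moved with afatinib in both lines, and its part in the results was not tested. The replicate 3 libraries of MKN1 cells stood apart from the others, with a median absolute difference between afatinib and untreated of 0.39 on the log2 scale over all genes against 0.22 and 0.24 in the other MKN1 pairs. In MKN7 cells this value was 0.46 in pair 3 against 0.39 and 0.37. Fits without both replicate 3 libraries of MKN1 were added, and where the call of a named gene was lost in them, or with any 1 library left out, the adjusted p of that fit, or the highest of those fits, is given. Groups are called overlapping over all libraries, and the 3 same-numbered pairs are given where they nevertheless moved one way.

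The afatinib effect passed the test for more genes in MKN7 than in MKN1 cells. Of 19676 genes tested, 4491 (22.8%) were higher and 3524 (17.9%) lower in MKN7 cells with a Benjamini-Hochberg adjusted p below 0.05, against 1782 (9.06%) and 1667 (8.47%) in MKN1 cells. Without the replicate 3 libraries of MKN1 the count in MKN1 cells went from 3449 to 398 genes, and with the replicate number as a block, which takes out what same-numbered libraries share, it was 6778. The difference between the lines passed the same threshold for 1396 genes (7.09% of those tested), of which 834 (4.24%) were positive, meaning a more positive change in MKN7 cells, and 562 (2.86%) were negative. The excess of positive genes depended on the processing. With DESeq2 1112 genes were positive and 1094 negative. The counts were 695 and 766 with 10 counts required in every library, 658 and 671 without a filter, and 735 and 517 without TMM. An absolute difference above 1 on the log2 scale was reached by 801 genes (4.07%). With the replicate block 3937 genes (20.0%) were called, 2192 (11.1%) positive and 1745 (8.87%) negative, and 1393 of the 1396 genes were among them. Without the replicate 3 libraries of MKN1, 584 positive and 550 negative genes were called. Of the 1396 genes 886 were still called in that fit, and all 1396 kept their sign. The median difference over all genes tested was 0.04 on the log2 scale. Of the 1396 genes 1168 were protein-coding, and 1138 (81.5%) had the larger absolute change in MKN7 cells. The same share over all genes tested was not counted. Changes over all genes were also larger in MKN7 cells, with median absolute pair differences of 0.39, 0.37 and 0.46 against 0.22, 0.24 and 0.39. The differences of the 3 same-numbered pairs did not overlap between the lines for all 1396 genes, as for 7686 (39.1%) of all genes tested.

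The largest class among the 1396 genes was 632 genes that were higher in MKN7 cells after afatinib and not called in MKN1 cells. A further 370 were lower in MKN7 cells and not called in MKN1 cells. The reverse pattern was found for 77 genes that were lower and 91 that were higher in MKN1 cells and not called in MKN7 cells. In 120 genes both effects were called with opposite signs, 68 of them higher in MKN7 and lower in MKN1 cells and 52 lower in MKN7 and higher in MKN1 cells. The remaining genes were called in the same direction in both lines with unequal size (84 genes) or in neither line alone (22 genes). A level of 1 CPM in at least 1 group of each line was reached by 12965 of the tested genes and by 1170 of the called ones. Of the other 226 called genes 131 were below that level in MKN7 and 150 in MKN1 cells.

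**Figure D1:**
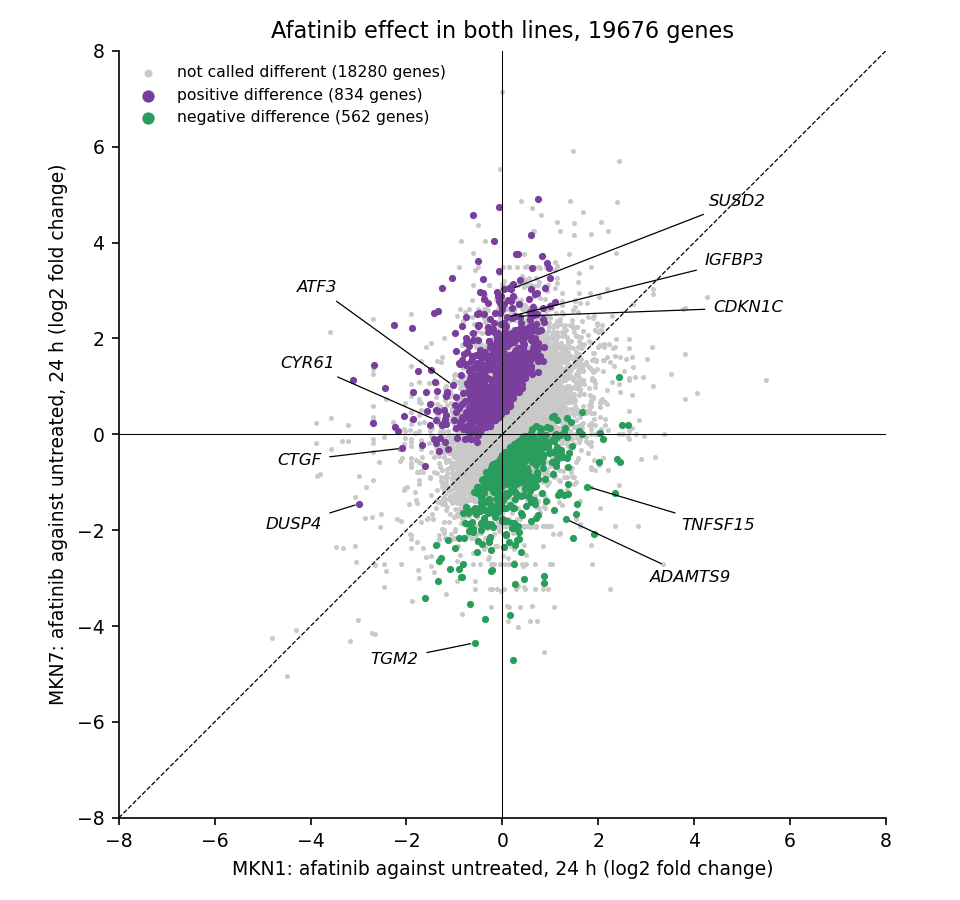
Each point is 1 of 19676 genes, with its log2 fold change (afatinib against untreated, 24 h) in MKN1 cells on the x axis and in MKN7 cells on the y axis, and the dashed line marks equal effects. The 834 genes with a positive difference (purple) lie above the line and the 562 with a negative one (green) below it; genes not called are grey, and the called genes extend further along the MKN7 axis.

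Of the 4 ERBB receptors only ERBB2 was called different between the lines without the block, while with the block EGFR and ERBB3 passed as well. The gene lies on chromosome 17 (39687914 to 39730426, GRCh38) and was at 5329, 5158 and 3758 CPM in untreated and 7447, 7531 and 6787 CPM in afatinib-treated MKN7 cells. In MKN1 cells it was at 181, 154 and 187 CPM without and 170.2, 144 and 161 CPM with afatinib. The MKN7 groups did not overlap and the MKN1 groups did, where afatinib minus untreated was -0.09, -0.09 and -0.22 on the log2 scale in pairs 1 to 3, and the difference was 0.74 ± 0.20 (SE), adjusted p = 0.0391 (with the block 0.00151). The call is near the threshold, with an adjusted p up to 0.096 when 1 library was left out and 0.115 without replicate 3 of MKN1. EGFR (chromosome 7, 55019021 to 55211628) was at 458, 523 and 616 CPM without and 292, 331 and 310.3 CPM with afatinib in MKN7 cells, where it fell by 0.78 on the log2 scale. In MKN1 cells its levels were 304, 242 and 262 CPM and 274, 209 and 179 CPM, and these ranges overlapped, while the pairs differed by -0.15, -0.21 and -0.55 on the log2 scale. The difference of EGFR was -0.49 ± 0.21 (SE), adjusted p = 0.2, and with the block the adjusted p was 0.026. ERBB3, which encodes HER3, was at 45.6, 43 and 35.3 CPM and 66.5, 64.2 and 58.3 CPM in MKN7 and at 8.35, 7.72 and 9.73 CPM and 8.77, 9.53 and 11.4 CPM in MKN1 cells. It rose by 0.61 on the log2 scale in MKN7 cells, while the difference between the lines (0.41, adjusted p = 0.206) passed the threshold only with the block (adjusted p = 0.0145). ERBB4, which encodes HER4, was at 8.52, 10.7 and 8.35 CPM and 13.8, 13 and 13.9 CPM in MKN7 cells and at or below 1.86 CPM in all MKN1 libraries, and its difference was 0.99 (adjusted p = 0.25). Counted over the 4 receptors, 1 was called positive and 0 negative (with the block 2 and 1), with a median difference of 0.58.

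The ligand genes AREG, EREG and HBEGF fell in both lines, and no ligand passed the test of the difference. Of 11 ligand genes 10 passed the filter on low counts (not EPGN), and 0 of these were called different, and with the block 2 were called negative. AREG (amphiregulin) was at 38.9, 26.5 and 62.3 CPM without and 7.64, 4.68 and 12.3 CPM with afatinib in MKN7 cells. Its MKN1 levels were 6.04, 6.64 and 17.7 CPM and 0.958, 1.03 and 1.04 CPM. AREG fell in both lines, by 2.38 and 3.32 on the log2 scale, with a difference of 0.94 (adjusted p = 0.423). EREG (epiregulin) fell by 1.73 and 2.72, with a difference of 0.99 (adjusted p = 0.358). HBEGF (heparin-binding EGF-like growth factor) fell by 1.46 and 1.94, with a difference of 0.49 (adjusted p = 0.535). TGFA, an EGFR ligand, fell in MKN7 cells from 202, 217 and 262 CPM to 138, 141 and 153 CPM and was at 17.9, 16.9 and 24 CPM and 17.7, 17.1 and 21.1 CPM in MKN1 cells, where the groups overlapped. Its difference was -0.59 ± 0.19 (SE), adjusted p = 0.0848, with the block 0.00146 and without replicate 3 of MKN1 0.0363. NRG4, a neuregulin that binds HER4, was at 1.98, 1.52 and 1.91 CPM without and 3.5, 3.49 and 4.79 CPM with afatinib in MKN1 cells and at 0.759, 0.661 and 0.886 CPM and 0.607, 0.78 and 0.974 CPM in MKN7 cells. Its difference was -1.08 ± 0.32 (SE), adjusted p = 0.0556, with the block 0.0167. BTC (betacellulin) rose in MKN1 cells by 0.67 on the log2 scale, with a difference of -0.35 (adjusted p = 0.414). The MKN1 changes of BTC and NRG4 had an adjusted p = 0.136 and 0.0576 without replicate 3 of MKN1. EGF, NRG1 and NRG3 were below 1 CPM in all MKN7 libraries, and their differences of -0.20, 0.31 and 1.28, like 0.46 for NRG2, did not pass the threshold.

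Most genes downstream of MAPK fell in both lines. Of 25 feedback and target genes tested, 22 were lower and 0 higher in MKN7 cells, and 24 were lower and 1 higher in MKN1 cells. Their median log2 fold change was -1.76 in MKN7 and -1.78 in MKN1 cells. Over all genes tested 17.9% were lower in MKN7 and 8.47% in MKN1 cells. The difference between the lines was called positive for 4.24% and negative for 2.86% of all genes (with the block 11.1% and 8.87%). In this list it was called for 1 gene in each direction (with the block 2 positive and 4 negative), with a median of -0.16. These values depended on single libraries. When replicate 3 of MKN1 was left out, the list had 1 positive and 4 negative genes, a median difference of -0.58 and medians of -1.80 in MKN7 and -1.42 in MKN1 cells, where 16 genes were lower. Without the untreated replicate 3 of MKN1 alone the median difference was -0.42 with 4 negative genes, and without the untreated replicate 3 of MKN7 it was 0.06 with 0 negative genes. DUSP4, a phosphatase that inactivates ERK in the nucleus, was at 174, 172 and 198 CPM in untreated and 61.4, 67.8 and 70.1 CPM in afatinib-treated MKN7 cells. In MKN1 cells its levels were 32.4, 38.1 and 65.3 CPM and 5.44, 6.2 and 5.44 CPM. DUSP4 fell in both lines and in MKN1 cells by more, 2.99 against 1.45 on the log2 scale, with a difference of 1.54 ± 0.27 (SE), adjusted p = 0.00496. SPRED2, an inhibitor of RAF activation, showed the reverse order. It was at 48, 53.7 and 64.7 CPM and 11.1, 10.5 and 11.9 CPM in MKN7 and at 42.8, 49.3 and 72.9 CPM and 21.3, 20.3 and 21.1 CPM in MKN1 cells. The difference of SPRED2 was -0.92 ± 0.23 (SE), adjusted p = 0.0304, and the highest adjusted p with 1 library left out was 0.0785.

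Genes described as targets of YAP and TEAD had the largest share of called members among the lists of 10 or more tested genes. The lists and their members were chosen with earlier results of these data known. Among the members, CYR61 and F3 are also motility genes that the study chose on MKN1 cells at 4 h. The rank and the counts therefore describe the list and are no test. Of 21 genes tested, 9 were positive and 1 was negative (4.24% and 2.86% over all genes). With the block 15 were positive and 1 negative (11.1% and 8.87% over all genes). The median difference was 0.68 against 0.04 over all genes, and it stood between 0.60 and 0.76 under every alternative, with 7 to 15 members positive and 1 negative. The median log2 fold change was 0.26 in MKN7 and -0.30 in MKN1 cells. Of the same 21 genes 8 were higher and 3 lower in MKN7 cells, and 0 were higher and 8 lower in MKN1 cells (5 without replicate 3 of MKN1). CYR61 (chromosome 1, 85580761 to 85583962), a matricellular protein gene, was at 209, 216 and 206 CPM without and 255, 244 and 275 CPM with afatinib in MKN7 cells, and at 223, 184 and 228 CPM and 85.3, 92 and 67.4 CPM in MKN1 cells, a difference of 1.67 ± 0.17 (SE), adjusted p = 0.000139. CTGF, its close relative, was at 5.19, 5.75 and 7.42 CPM and 4.69, 6.51 and 3.74 CPM in MKN7 cells and went from 98.7, 63.9 and 78.3 CPM to 19.8, 22.1 and 14.7 CPM in MKN1 cells, a difference of 1.80 ± 0.31 (SE), adjusted p = 0.00401. For both genes the MKN1 groups were far apart, while the change in MKN7 cells was 0.29 and -0.29 on the log2 scale and did not pass the test.

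AMOTL2, an angiomotin that binds YAP, was called in opposite directions. It was at 187, 185 and 148 CPM in untreated and 329.5, 344 and 278 CPM in afatinib-treated MKN7 cells. In MKN1 cells its levels were 143, 128 and 153 CPM and 107, 107 and 102 CPM. Neither pair of groups overlapped, and the difference was 1.30 ± 0.16 (SE), adjusted p = 0.000649. GADD45A, a stress-response gene, followed the same pattern, with 111, 105 and 110.1 CPM and 192, 185 and 260.0 CPM in MKN7 and 23, 25.5 and 27.8 CPM and 17, 21 and 16.8 CPM in MKN1 cells and a difference of 1.44 ± 0.19 (SE), adjusted p = 0.000902. Both differences were still called without replicate 3 of MKN1, while the MKN1 changes of AMOTL2 and GADD45A were not (adjusted p = 0.246 and 0.335). TGFB2, a ligand of the TGF-beta receptors, was at 45.1, 51.3 and 24.7 CPM and 65.8, 81.7 and 70.3 CPM in MKN7 cells and at 43.2, 34.9 and 39 CPM and 29.7, 23.8 and 22.6 CPM in MKN1 cells. Its groups did not overlap in either line, and the difference was 1.47 ± 0.29 (SE), adjusted p = 0.00883. LATS2, the Hippo kinase, was at 87.4, 91.8 and 63 CPM and 123, 133 and 103 CPM in MKN7 and at 67, 55.8 and 62 CPM and 56.9, 53.6 and 51.3 CPM in MKN1 cells. It rose in MKN7 cells, and the MKN1 change of -0.19 did not pass the test (difference 0.76, adjusted p = 0.0293, without replicate 3 of MKN1 0.101). ARHGEF17 had the same pattern with a difference of 0.66, adjusted p = 0.0299 (without replicate 3 of MKN1 0.0787). The highest adjusted p with 1 library left out was 0.0852 for LATS2 and 0.0858 for ARHGEF17. IGFBP3, which encodes a binding protein of insulin-like growth factors, had the largest positive difference of the list and changed in MKN7 cells alone by the test. Its levels were 497, 514 and 219.5 CPM and 2531, 2579 and 1563 CPM in MKN7 and 4182, 4006 and 4196 CPM and 4255, 4023 and 4922 CPM in MKN1 cells, a difference of 2.35 ± 0.37 (SE), adjusted p = 0.00261. F3 (tissue factor, the starter of blood clotting) fell in both lines, by 0.65 and 1.62 on the log2 scale, with a difference of 0.97 (adjusted p = 0.0043). NT5E, which encodes the ectoenzyme CD73, was the only called gene of the list with a negative difference (-2.62, adjusted p = 0.00309). It was at 145, 151 and 337 CPM without and 29.3, 27.7 and 31.7 CPM with afatinib in MKN7 cells, and at 13.6, 17.4 and 13.9 CPM and 18.3, 12.1 and 8.36 CPM in MKN1 cells, where the groups overlapped. Members of this list beyond the pair with the smallest p were named after their values had been seen.

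**Figure D2:**
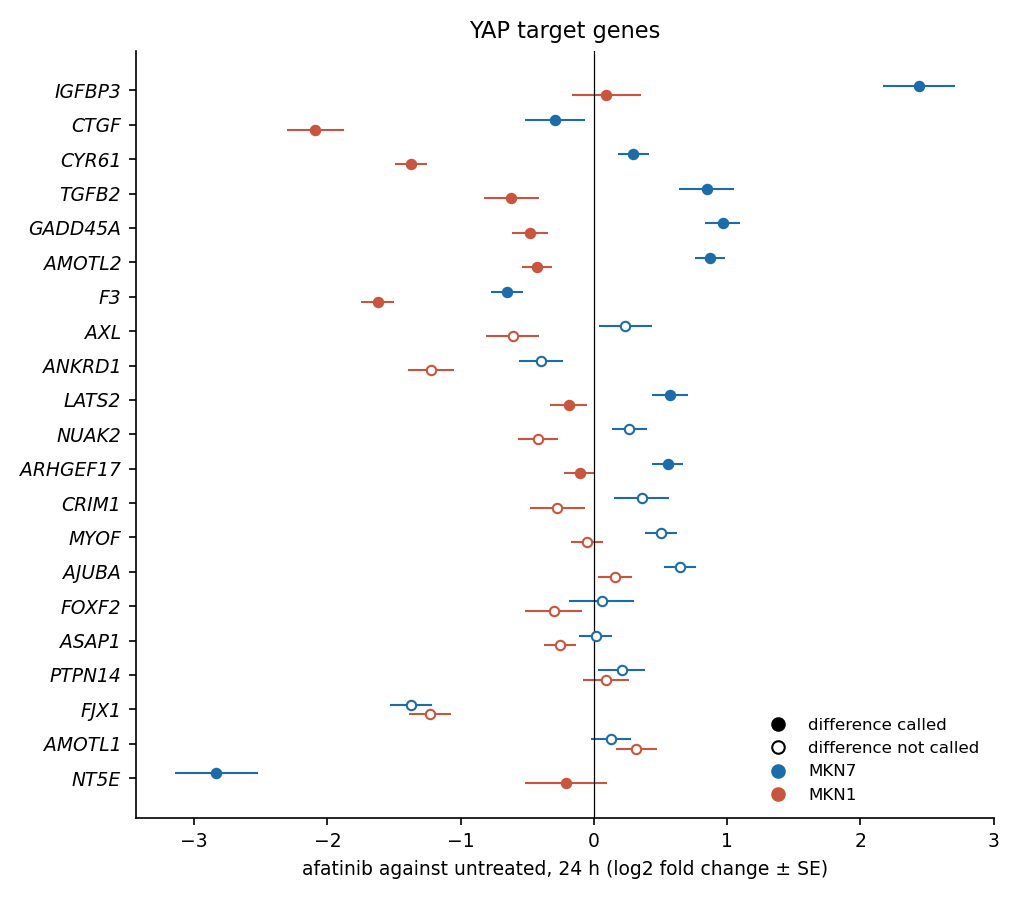
The log2 fold change (afatinib against untreated, 24 h) of 21 YAP target genes is plotted on the x axis for MKN7 (blue) and MKN1 cells (red), with the standard error of the fit as a bar; filled points mark the 10 genes whose difference was called. The blue point lies to the right of the red one in 18 of the 21 genes, with NT5E at the bottom as the largest exception.

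Promoter sequences of these genes are shown because TEAD factors bind the letters GGAATG. Read from the other strand the same letters are CATTCC. In the 250 bases before the start in RefSeq (GRCh38.p14) these letters, on either strand, were found at 9 of 19 starts of 16 of the 21 genes (47.4%), and at 4175 of 35116 starts of all genes (11.9%). Of the called genes 7 had a start in the table and 3 of these held the letters, AMOTL2 at 1 of its 2 starts. Of the genes not called 9 had a start and 6 of these held the letters. The matching windows of the called genes are shown, with the letters in capitals, 5′ to 3′ on the strand of the gene. A match is a description of these letters and not a binding site. The windows were chr6:131951373-131951622 (minus strand) for CTGF with 3 matches, chr3:134374448-134374697 (minus strand) for AMOTL2 with 1 and chr1:218345086-218345335 (plus strand) for TGFB2 with 1.
CTGF: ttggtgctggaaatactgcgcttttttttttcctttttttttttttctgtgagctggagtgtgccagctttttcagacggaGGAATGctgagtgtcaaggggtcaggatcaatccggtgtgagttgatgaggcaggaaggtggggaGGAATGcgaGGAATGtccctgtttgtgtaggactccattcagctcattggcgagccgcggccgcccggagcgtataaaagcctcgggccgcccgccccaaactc
AMOTL2: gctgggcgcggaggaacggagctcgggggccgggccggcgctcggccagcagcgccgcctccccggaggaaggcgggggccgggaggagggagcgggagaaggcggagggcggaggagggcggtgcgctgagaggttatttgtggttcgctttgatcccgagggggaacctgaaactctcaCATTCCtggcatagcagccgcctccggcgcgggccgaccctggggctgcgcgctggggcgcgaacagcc
TGFB2: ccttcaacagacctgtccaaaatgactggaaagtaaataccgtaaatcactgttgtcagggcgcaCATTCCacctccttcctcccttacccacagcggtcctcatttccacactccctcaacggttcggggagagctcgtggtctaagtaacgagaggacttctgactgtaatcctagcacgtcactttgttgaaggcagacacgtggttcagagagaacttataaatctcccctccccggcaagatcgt

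Among called protein-coding genes at 1 CPM or more in each line, the largest positive differences were found in genes that rose in MKN7 cells. SUSD2 (chromosome 22, 24181259 to 24189110), which encodes a membrane protein with a sushi domain, was at 6.92, 7.71 and 5.96 CPM without and 70.4, 57.8 and 40.5 CPM with afatinib in MKN7 cells. Its MKN1 levels were 31.6, 30 and 24.5 CPM and 34.2, 34 and 29.4 CPM, with overlapping groups and pair differences of 0.12, 0.18 and 0.26 on the log2 scale. The difference of SUSD2 was 2.85 ± 0.25 (SE), adjusted p = 6.47e-05. ACKR3, an atypical chemokine receptor that takes up CXCL12, was at 13.6, 15.9 and 5.67 CPM and 81.2, 85.1 and 66.7 CPM in MKN7 and at 102, 104 and 111 CPM and 94.6, 106 and 125 CPM in MKN1 cells, a difference of 2.68 ± 0.35 (SE), adjusted p = 0.000942. NKAIN4, whose product interacts with the sodium pump, was at 8.48, 8.29 and 4.69 CPM and 47.8, 47.9 and 46.5 CPM in MKN7 and at 1.33, 1.65 and 1.35 CPM and 1.01, 1.15 and 2.06 CPM in MKN1 cells, a difference of 2.77 ± 0.36 (SE), adjusted p = 0.000841. In each of these genes the afatinib-treated MKN7 libraries were all above the untreated ones, and the MKN1 change did not pass the test. HSD17B14, a hydroxysteroid dehydrogenase gene, went from 5.44, 4.48 and 3.23 CPM to 16.9, 15.8 and 16.7 CPM in MKN7 and from 1.41, 1.37 and 1.82 CPM to 0.94, 0.892 and 0.958 CPM in MKN1 cells, a difference of 2.62 ± 0.27 (SE), adjusted p = 0.000167. Its change in MKN1 cells did not pass without replicate 3 of MKN1 (adjusted p = 0.251).

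B3GNT7, a glycosyltransferase gene, had the largest positive difference of these genes, 3.04 ± 0.33 (SE), adjusted p = 0.000316. It was at 0.513, 0.681 and 0.487 CPM and 4.52, 3.31 and 3.43 CPM in MKN7 and at 49, 33.5 and 33.9 CPM and 41.2, 27.3 and 25.7 CPM in MKN1 cells. ADGRB1, an adhesion G protein-coupled receptor, went from 0.41, 0.34 and 0.31 CPM to 2.39, 2.15 and 1.52 CPM in MKN7 and from 82.4, 82.8 and 105 CPM to 58.3, 58.8 and 70.6 CPM in MKN1 cells, a difference of 3.03 ± 0.27 (SE), adjusted p = 7.13e-05, and without replicate 3 of MKN1 its MKN1 change did not pass (adjusted p = 0.118). RAB36, a small GTPase, was at 0.718, 0.44 and 0.133 CPM and 2.58, 3.05 and 1.89 CPM in MKN7 and at 13.4, 11.5 and 14.2 CPM and 10.9, 8.74 and 8.25 CPM in MKN1 cells, a difference of 3.01 ± 0.43 (SE), adjusted p = 0.00136. For these 3 genes even the afatinib-treated MKN7 libraries stayed below every MKN1 library, and the change in MKN7 cells stood on a low level. SULF1 (a heparan sulfate sulfatase), SPINK4 (a protease inhibitor of goblet cells) and CTNND2 (delta-catenin) were below 1 CPM in all untreated MKN7 libraries, with differences of 2.89 (adjusted p = 0.0409), 2.72 (adjusted p = 0.00332) and 2.63 (adjusted p = 0.0163). The call of SULF1 was lost with 1 library left out (highest adjusted p 0.118), and that of CTNND2 without replicate 3 of MKN1 (0.0545).

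TGM2 (chromosome 20, 38127387 to 38166578), the tissue transglutaminase that crosslinks proteins, had the largest negative difference by the same rule. It was at 1947, 2165 and 3023 CPM in untreated and 111, 105 and 134 CPM in afatinib-treated MKN7 cells. In MKN1 cells the levels were 62.3, 54.8 and 68 CPM and 45.4, 45.9 and 32.8 CPM. TGM2 fell by 4.35 on the log2 scale in MKN7 cells, and the difference was -3.77 ± 0.25 (SE), adjusted p = 1.14e-05. Its change of -0.58 in MKN1 cells passed the test, but without replicate 3 of MKN1 it was -0.34 (adjusted p = 0.429). ARHGAP22, which switches off the small GTPase RAC, went from 22.8, 21.2 and 39.9 CPM to 4.25, 3.55 and 5.03 CPM in MKN7 and was at 2.59, 3.43 and 2.0 CPM and 3.58, 3.31 and 2.65 CPM in MKN1 cells, a difference of -2.96 ± 0.36 (SE), adjusted p = 0.000628. FHL1, a LIM domain protein gene known from muscle, went from 32.9, 21.9 and 43.3 CPM to 8.08, 5.08 and 4.66 CPM in MKN7 cells and was at 126, 116 and 80.9 CPM and 161, 151 and 108 CPM in MKN1 cells, a difference of -2.85 ± 0.36 (SE), adjusted p = 0.000841. In both genes the MKN7 groups were far apart and the MKN1 groups overlapped, although FHL1 was higher with afatinib in each MKN1 pair, by 0.36, 0.39 and 0.42 on the log2 scale. BTBD19 (-2.88, adjusted p = 0.00511), SH2D2A, an adaptor of T cells (-2.62, adjusted p = 0.0108), and NOX5, an NADPH oxidase (-2.52, adjusted p = 0.0118), also fell in MKN7 cells, from levels of at most 10.3, 6.84 and 2.7 CPM. Among the 3 untreated MKN7 libraries, replicate 3 held the highest level of all 10 genes with the largest negative differences and the lowest level of 8 of the 10 with the largest positive ones. With any 1 library left out, that one included, all 10 negative and 9 of the 10 positive genes were still called, SULF1 being the exception. All 20 genes with the largest differences were called with the replicate block.

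**Figure D3:**
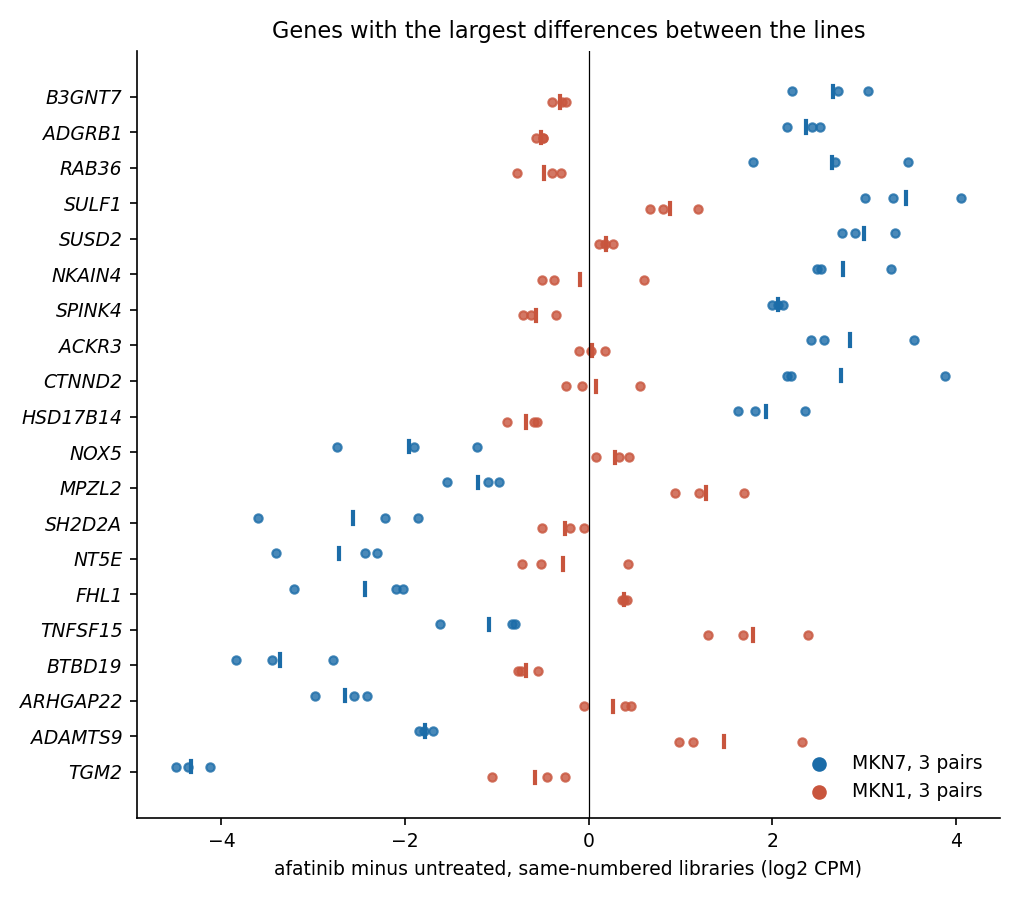
For the 10 largest positive and the 10 largest negative differences, points give afatinib minus untreated (log2 CPM) of each of the 3 same-numbered pairs in MKN7 (blue) and MKN1 cells (red), and bars their mean. The points of the lines do not overlap in any of the 20 genes, as the rule that chose these genes required. The genes run from B3GNT7 at the top (difference 3.04) to TGM2 at the bottom (-3.77).

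Of the genes with opposite effects, ATF3 had the largest change that was reached in both lines among those that were higher in MKN7 cells. ATF3 (chromosome 1, 212565334 to 212620777), a transcription factor induced by stress, went from 11.3, 9.89 and 8.61 CPM to 20.5, 19 and 20.8 CPM in MKN7 cells. In MKN1 cells it went from 50.3, 45.3 and 42.3 CPM to 20.7, 26.1 and 20.5 CPM. The groups did not overlap in either line, and the difference was 2.05 ± 0.18 (SE), adjusted p = 6.47e-05. GATA6, a transcription factor of gut epithelium, was at 20.7, 14.4 and 12.1 CPM and 40.4, 36.8 and 34.1 CPM in MKN7 and at 16.6, 17.8 and 25.1 CPM and 10.1, 12.2 and 10.3 CPM in MKN1 cells, a difference of 2.11 ± 0.27 (SE), adjusted p = 0.000793. CYP26B1, which breaks down retinoic acid, was at 11.5, 12.8 and 8.37 CPM and 16.3, 23.8 and 19.5 CPM in MKN7 and at 24.8, 22.7 and 28.8 CPM and 14.3, 11.1 and 8.96 CPM in MKN1 cells, a difference of 2.02 ± 0.27 (SE), adjusted p = 0.00108. Without replicate 3 of MKN1 the difference was still called for all 3 genes, while the change in MKN1 cells was called for ATF3 and not for GATA6 (adjusted p = 0.144) or CYP26B1 (adjusted p = 0.0623). ENSG00000226434, which has no symbol in GENCODE 29, had the same pattern at lower levels, with 1.13, 1.0 and 0.421 CPM and 2.2, 2.98 and 2.05 CPM in MKN7 and 8.39, 5.74 and 6.73 CPM and 4.35, 3.29 and 3.58 CPM in MKN1 cells and a difference of 2.39 ± 0.38 (SE), adjusted p = 0.00275 (MKN1 change without replicate 3 of MKN1, adjusted p = 0.189).

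TNFSF15 (chromosome 9, 114784635 to 114806126), a cytokine of the TNF family, had the reverse pattern. It was at 54.5, 46.6 and 67.8 CPM without and 31.2, 26.2 and 22 CPM with afatinib in MKN7 cells. The MKN1 levels were 4.46, 2.27 and 2.49 CPM and 11.1, 7.39 and 13.2 CPM. The groups were apart in both lines, and the difference was -2.85 ± 0.35 (SE), adjusted p = 0.000691. MPZL2, an adhesion protein of epithelia, was at 133, 121 and 244 CPM and 62.3, 61.4 and 83.8 CPM in MKN7 and at 3.3, 2.83 and 2.38 CPM and 6.38, 6.58 and 7.77 CPM in MKN1 cells, a difference of -2.54 ± 0.34 (SE), adjusted p = 0.000942. ADAMTS9, a secreted metalloprotease, was at 26.4, 24.2 and 36 CPM and 7.31, 6.93 and 11 CPM in MKN7 and at 1.33, 1.18 and 0.381 CPM and 2.67, 2.64 and 2.06 CPM in MKN1 cells, a difference of -3.10 ± 0.43 (SE), adjusted p = 0.00112. Both genes were lower in MKN1 than in MKN7 cells in every library, and afatinib brought the lines closer. LINC01843, a long non-coding RNA, was at 3.86, 3.62 and 4.14 CPM and 2.7, 1.65 and 2.24 CPM in MKN7 and at 2.69, 2.19 and 2.31 CPM and 4.46, 4.74 and 5.67 CPM in MKN1 cells, a difference of -1.87 ± 0.26 (SE), adjusted p = 0.00124. Without replicate 3 of MKN1 the change in MKN1 cells was called for TNFSF15 and not for MPZL2 (adjusted p = 0.114), ADAMTS9 (adjusted p = 0.0836) or LINC01843 (adjusted p = 0.0598), and all 4 differences were still called.

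The number of genes with opposite effects depended on the libraries in the fit, while the sign of their MKN1 change held without replicate 3 of MKN1. Without both replicate 3 libraries of MKN1, 20 genes were called in opposite directions instead of 120, and with the replicate block 448 were. With 1 library left out it was 53 and 71 genes without the untreated and the afatinib replicate 3 of MKN1. Without the afatinib replicate 1 of MKN1 it was 70, and without the afatinib replicates 1 and 2 of MKN7 77 and 78. No other pair of MKN1 libraries was left out as a whole. Of the 68 genes that were higher in MKN7 and lower in MKN1 cells, 67 were lower in all 3 MKN1 pairs, with median differences of -0.53, -0.51 and -0.80 on the log2 scale in pairs 1 to 3. All 52 genes of the reverse kind were higher in all 3 MKN1 pairs, with medians of 0.63, 0.65 and 0.86. The difference between the lines was still called for 59 of the 68 and 51 of the 52 genes without replicate 3, whereas the effect in MKN1 cells alone was called for 6 and 10. The rule already used these libraries to choose the 120 genes, so these counts describe them and are no test. In the trastuzumab libraries, which did not enter the choice, 117 of the 120 genes had the same pair of opposite signs. There 98 of them were called different, beside 4.52% of all genes tested and 48.8% of the 1396 genes.

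**Figure D4:**
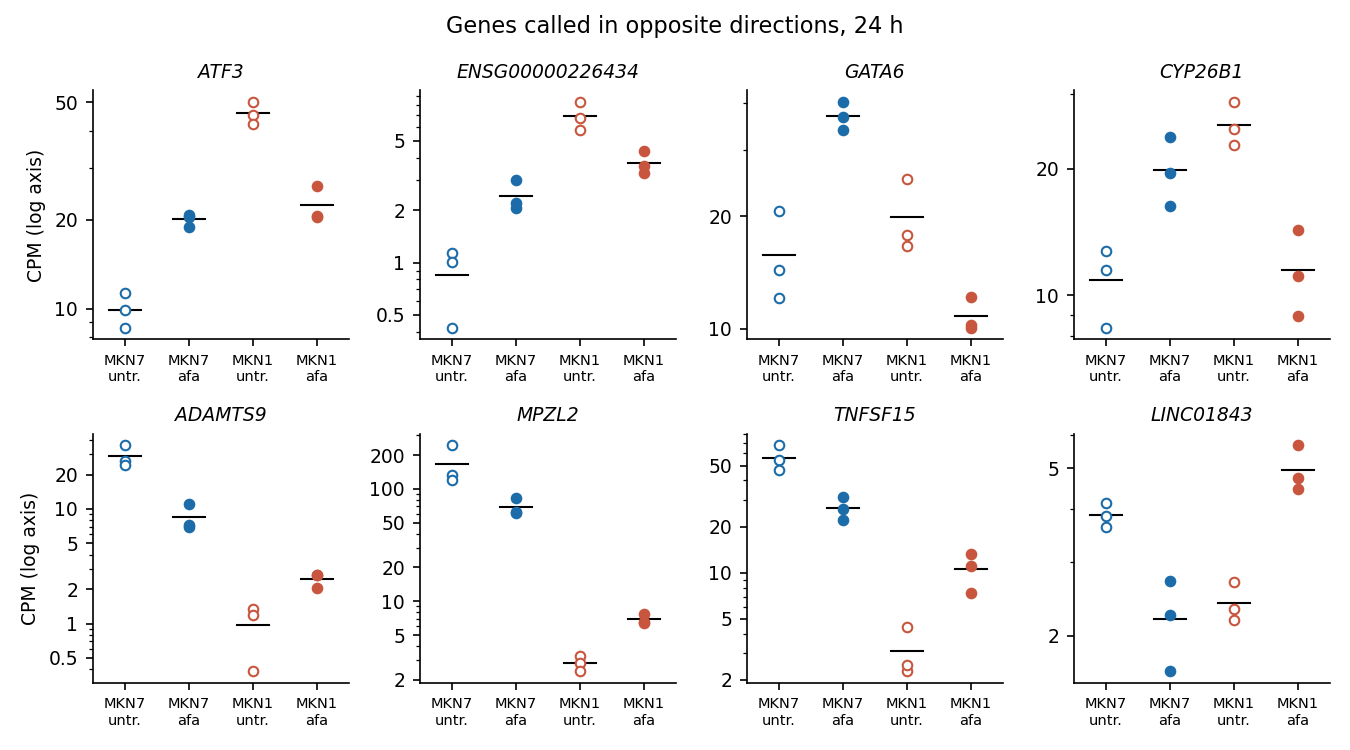
CPM on a log axis (a different range in each panel) of the 8 genes called in opposite directions, for each of the 3 libraries of MKN7 (blue) and MKN1 cells (red), untreated (open) and after 24 h afatinib (filled), with a bar at the mean. In the upper row the MKN7 points go up and the MKN1 points down, and in the lower row the reverse, as in TNFSF15 (-1.09 in MKN7 and 1.77 in MKN1 cells on the log2 scale).

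Most genes of proliferation fell in MKN7 cells, and the number called in MKN1 cells rested on replicate 3. Of 42 S phase genes tested 41 were lower in MKN7 and 18 in MKN1 cells, and of 53 genes of the G2/M phase 48 and 37, with 0 higher in either line. Over all genes tested 17.9% were lower in MKN7 and 8.47% in MKN1 cells. Without replicate 3 of MKN1, 0 S phase and 3 G2/M phase genes were lower in MKN1 cells, with median log2 fold changes of -0.23 and -0.28. Over all genes tested the difference was called negative for 2.86%, and with the block for 8.87%. It was called negative for 1 S phase gene and 0 genes of the G2/M phase, and with the block for 17 and 6 (40.5% and 11.3%). DESeq2 called 8 and 3 of them, the fit of all 66 libraries 14 and 5, and the fit without the afatinib replicate 3 of MKN7 10 and 0. The median difference was -0.36 for the S phase and -0.21 for the G2/M phase, and without replicate 3 of MKN1 -0.53 with 4 genes called and -0.36 with 2. CHAF1B, a subunit of the chromatin assembly factor, was the called gene, with 37.5, 39 and 39.4 CPM and 20.3, 21.1 and 24.7 CPM in MKN7 and 29.9, 29 and 28.1 CPM and 25.2, 24.9 and 20.6 CPM in MKN1 cells. Its difference of -0.51 ± 0.15 (SE), adjusted p = 0.049 was lost when 1 library was left out (highest adjusted p 0.122). Among 21 cyclins, CDKs and CDK inhibitors 1 was called positive and 0 negative (with the block 2 and 8), with a median of -0.30 (-0.49 without replicate 3 of MKN1). CDKN1C (chromosome 11, 2883213 to 2885773), which encodes the CDK inhibitor p57, was at 8.91, 6.15 and 5.49 CPM without and 36.9, 35.2 and 41.4 CPM with afatinib in MKN7 cells. In MKN1 cells it was at 28.4, 27.7 and 27.8 CPM and 32.1, 35.8 and 33.1 CPM. CDKN1C rose in MKN7 cells above the level of untreated MKN1 cells, and its difference was 2.20 ± 0.20 (SE), adjusted p = 9.15e-05.

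Ribosome biogenesis, glycolysis and respiratory chain genes had negative medians. Over all genes tested 17.9% were lower in MKN7 and 8.47% in MKN1 cells. The difference was called negative for 2.86% of all genes, and with the block for 8.87%. Of 29 ribosome biogenesis genes, 28 were lower in MKN7 and 21 in MKN1 cells, and the difference was called negative for 2 (with the block 8), with a median of -0.29. When replicate 3 of MKN1 was left out, 1 gene was lower in MKN1 cells, and the difference was called negative for 6 with a median of -0.44. TCOF1, which acts in rRNA transcription, was at 450.2, 403 and 459.8 CPM and 212, 187 and 209.8 CPM in MKN7 and at 381, 343 and 395 CPM and 322, 286 and 263 CPM in MKN1 cells, a difference of -0.75 ± 0.15 (SE), adjusted p = 0.0083. BOP1, needed for the large ribosomal subunit, had a difference of -0.56 (adjusted p = 0.046), with a highest adjusted p of 0.113 when 1 library was left out. Of 20 glycolysis genes 4 were called negative and 0 positive (with the block 10 and 0), with a median of -0.31, and 14 were lower in MKN7 against 4 in MKN1 cells (0 without replicate 3 of MKN1). HK2, the hexokinase of many tumours, was at 217, 254 and 233 CPM and 96.8, 107 and 81.7 CPM in MKN7 and at 41.2, 36 and 48.9 CPM and 34.4, 27.6 and 30.5 CPM in MKN1 cells, a difference of -0.86 ± 0.18 (SE), adjusted p = 0.013. HK1, PFKM and PGK1, which encode further enzymes of the pathway, had differences of -0.58 (adjusted p = 0.014), -0.60 (adjusted p = 0.0241) and -0.71 (adjusted p = 0.0189). PFKM rose in MKN1 cells and the others fell in MKN7 cells. Neither the MKN1 change of PFKM (adjusted p = 0.0778) nor its difference (adjusted p = 0.0583) passed without replicate 3 of MKN1, and the latter reached 0.0613 with 1 library left out. In 28 nuclear genes of the respiratory chain all 28 differences were below 0, with a median of -0.32, yet only NDUFS1, a subunit of complex I, was called (-0.44 ± 0.11 (SE), adjusted p = 0.0226, highest adjusted p with 1 library left out 0.0627), and with the block 16 were. NDUFS1 was at 104, 96.3 and 103 CPM and 75.6, 81.3 and 75.3 CPM in MKN7 and at 191, 188 and 191 CPM and 202, 198 and 194 CPM in MKN1 cells.

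Among epithelial and mesenchymal genes single members were called in both directions, beside 4.24% positive and 2.86% negative over all genes tested (with the block 11.1% and 8.87%). Of 28 epithelial junction and keratin genes 4 were positive and 3 negative (with the block 7 and 5), with a median of -0.10. KRT7, a keratin of simple epithelia, went from 837, 721 and 724 CPM to 1127, 986 and 1049 CPM in MKN7 and from 1241, 1279 and 1293 CPM to 789, 857 and 679.8 CPM in MKN1 cells, a difference of 1.18 ± 0.16 (SE), adjusted p = 0.000942. CDH1 fell in MKN7 cells to 215, 210.0 and 191 CPM and rose in MKN1 cells to 5.51, 4.06 and 6.19 CPM, a difference of -1.37 ± 0.21 (SE), adjusted p = 0.00218 (MKN1 change without replicate 3 of MKN1, adjusted p = 0.0528). CLDN7, a claudin of tight junctions, was at 66.4, 59.7 and 82.1 CPM and 54.1, 44.9 and 60.1 CPM in MKN7 and at 6.09, 6.09 and 4.76 CPM and 10.5, 11.3 and 15 CPM in MKN1 cells, a difference of -1.50 ± 0.23 (SE), adjusted p = 0.00225. CDH1 and CLDN7 stayed higher in MKN7 than in MKN1 cells in every library. GRHL2, a transcription factor of epithelial cells, was at 169, 172 and 133 CPM and 224, 237 and 214 CPM in MKN7 cells but at or below 0.536 CPM in every MKN1 library, and its difference was 1.90 ± 0.28 (SE), adjusted p = 0.00162. This difference includes a change in MKN1 cells at those low levels and is larger than the rise in MKN7 cells alone. ELF3 (0.99, adjusted p = 0.0354) and ESRP1 (-0.90, adjusted p = 0.0163), which encode a transcription factor and a splicing factor of epithelial cells, were also called, and that of ELF3 was lost without replicate 3 of MKN1 (0.0884) and with 1 library left out (up to 0.0992).

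Of 21 mesenchymal genes 4 were positive and 1 negative (with the block 4 and 4), with a median of -0.13 that ranged from -0.26 to 0.18 over the alternatives. These counts and those of the gastric and intestinal genes stand beside the same 4.24% and 2.86% over all genes (with the block 11.1% and 8.87%). SPARC, a matrix protein, was at 125, 158 and 113 CPM and 257, 327 and 318 CPM in MKN7 and at 1191, 1254 and 1108 CPM and 1419.9, 1484 and 1307 CPM in MKN1 cells, a difference of 0.94 ± 0.19 (SE), adjusted p = 0.00916. SNAI2 (the repressor Slug; 0.97, adjusted p = 0.0407) and TAGLN (transgelin; 1.00, adjusted p = 0.0475) were also positive, and MMP2, a gelatinase, was negative (-1.35, adjusted p = 0.00402). The call of SNAI2 was lost without replicate 3 of MKN1 (0.139), and with 1 library left out the adjusted p reached 0.109 for SNAI2 and 0.123 for TAGLN. Of 11 gastric genes 1 was called in each direction. TFF2, a trefoil peptide of gastric mucus, fell in MKN7 cells from 6.79, 3.72 and 8.95 CPM to 1.11, 0.762 and 1.11 CPM and was at 1.61, 2.51 and 2.71 CPM and 1.35, 1.53 and 1.0 CPM in MKN1 cells, a difference of -1.90 ± 0.44 (SE), adjusted p = 0.0199, and GATA6 was the positive gene. Of 14 intestinal genes tested 1 was called in each direction, DPP4, a brush border peptidase (1.32, adjusted p = 0.0434), and CA2, a carbonic anhydrase (-1.09, adjusted p = 0.0306). With 1 library left out the adjusted p reached 0.0614 for TFF2, 0.115 for DPP4 and 0.0739 for CA2, and without replicate 3 of MKN1 it was 0.0523 for DPP4.

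Of genes linked to PI3K, FOXO and other receptors single members were called in both directions, beside 4.24% positive and 2.86% negative over all genes tested (with the block 11.1% and 8.87%). Of 23 PI3K and FOXO genes 2 were positive and 1 negative (with the block 8 and 7), with a median of 0.20. KLHL24, a FOXO-responsive gene, was at 14.4, 13.2 and 11.8 CPM and 49.2, 51.2 and 41.4 CPM in MKN7 and at 41.2, 26.8 and 29.2 CPM and 54.2, 42 and 57 CPM in MKN1 cells, a difference of 1.20 ± 0.23 (SE), adjusted p = 0.00734. IRS2, the adaptor of the insulin receptor, fell in MKN7 cells from 109, 115 and 94.8 CPM to 62.3, 59.2 and 52.7 CPM and was at 26.1, 23.3 and 24.9 CPM and 26.8, 23 and 24.9 CPM in MKN1 cells, a difference of -0.88 ± 0.14 (SE), adjusted p = 0.00299. CITED2, a transcriptional regulator, was positive (0.67, adjusted p = 0.0396), a call lost without replicate 3 of MKN1 (0.0791) and with 1 library left out (up to 0.107). Of 23 other receptor tyrosine kinases 3 were positive and 2 negative (with the block 6 and 6), with a median of 0.36 (0.23 without replicate 3 of MKN1). EPHB2 (0.70, adjusted p = 0.0146), FGFR3 (0.96, adjusted p = 0.0208) and EPHA4 (1.03, adjusted p = 0.0269) were positive, and EPHB6 (-0.98, adjusted p = 0.00602) and the collagen receptor DDR1 (-0.53, adjusted p = 0.0497) negative. The fit without replicate 3 of MKN1 lost the calls of EPHB2 (0.0748), EPHA4 (0.0751) and DDR1 (0.100), and with 1 library left out the adjusted p reached 0.0571 for FGFR3, 0.0763 for EPHA4 and 0.122 for DDR1. EPHB6 was at 10.5, 8.01 and 11.8 CPM and 8.08, 6.57 and 8.4 CPM in MKN7 and at 178, 155 and 169.9 CPM and 257, 246 and 253 CPM in MKN1 cells, where it rose (without replicate 3 of MKN1, adjusted p = 0.0843).

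Of 14 motility genes, which the study chose on MKN1 cells at 4 h and which therefore are not independent evidence of a direction in MKN1, 3 were positive and 2 negative (with the block 4 and 3), with a median of 0.08 (-0.27 without replicate 3 of MKN1). Over all genes tested 4.24% were positive and 2.86% negative (with the block 11.1% and 8.87%), which also stands beside the BCL2, p53 and ATF4 counts below. ETS1, a transcription factor, went from 273, 270.4 and 385 CPM to 82.4, 74.4 and 101 CPM in MKN7 and was at 38.1, 31.6 and 23.3 CPM and 47.2, 35.1 and 24.1 CPM in MKN1 cells, a difference of -2.04 ± 0.32 (SE), adjusted p = 0.00272. ITGA2, a collagen-binding integrin, was at 173, 177 and 424 CPM and 34, 34.1 and 43 CPM in MKN7 and at 21.9, 23.5 and 48.1 CPM and 18.3, 15.2 and 16.2 CPM in MKN1 cells. Its difference was -1.89 ± 0.47 (SE), adjusted p = 0.027, and the highest adjusted p with 1 library left out was 0.0695. F3 and CYR61, described above, were among the positive genes. In the BCL2 family 2 of 14 genes were negative and 0 positive (with the block 3 and 1), with a median of -0.16. BCL2 was at 3.49, 3.48 and 5.12 CPM and 0.419, 0.589 and 0.682 CPM in MKN7 and at 7.65, 6.71 and 10.5 CPM and 4.18, 3.84 and 3.63 CPM in MKN1 cells, a difference of -1.73 ± 0.32 (SE), adjusted p = 0.00608, and BCL2L1 had a difference of -0.57 (adjusted p = 0.0165). Of 20 p53 target genes 3 were negative and 0 positive (with the block 6 and 2), with a median of -0.10. They were PLK3, a stress kinase (-2.12, adjusted p = 0.00796), TNFRSF10B, a receptor of TRAIL (-0.73, adjusted p = 0.0324), and BTG2, an antiproliferative gene (-1.15, adjusted p = 0.037). The calls of TNFRSF10B (0.071) and BTG2 (0.0985) were lost without replicate 3 of MKN1, and with 1 library left out they reached 0.0849 and 0.0873. In 24 targets of ATF4, 1 was called in each direction (with the block 4 positive and 7 negative), with a median of -0.26 (-0.43 without replicate 3 of MKN1). DDIT4, an inhibitor of mTORC1, was at 45.6, 41.4 and 46.1 CPM and 26.9, 20.6 and 22.6 CPM in MKN7 and at 10, 13.5 and 9.02 CPM and 16.1, 20.5 and 17.8 CPM in MKN1 cells, a change in opposite directions with a difference of -1.67 ± 0.21 (SE), adjusted p = 0.000793, and ATF3 was the positive gene. The MKN1 change of DDIT4 did not pass without replicate 3 of MKN1 (adjusted p = 0.0796).

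Single genes were called in the immune, metabolic and Notch lists, with shares from 0% (lysosome and autophagy) to 21.1% (Notch pathway) beside 7.09% over all genes tested. With the block 20.0% of all genes were called. Of 29 interferon-stimulated genes 2 were positive and 1 negative (with the block 6 and 3), with a median of 0.26. IFITM2, which shares sequence with near-identical relatives and whose counts are therefore uncertain, had a difference of 1.50 (adjusted p = 0.00469), STAT2 of 0.70 (adjusted p = 0.0419) and the RNA sensor gene IFIH1 of -0.71 (adjusted p = 0.0223). The call of IFIH1 was lost without replicate 3 of MKN1 (0.0607), and with 1 library left out the adjusted p reached 0.0634 for IFIH1 and 0.109 for STAT2. Of 12 genes of MHC class I presentation, the transactivator gene NLRC5 was called (1.02 ± 0.21 (SE), adjusted p = 0.0107), with 35.9, 29.4 and 22.4 CPM and 78, 62.5 and 60.8 CPM in MKN7 and 21.7, 18.6 and 19.9 CPM and 22.4, 22.8 and 23 CPM in MKN1 cells. Of 12 chemokine genes CXCL16, a membrane-bound chemokine, was called positive (0.89, adjusted p = 0.00198), while the median of the list was -0.25 (-0.45 without replicate 3 of MKN1). Of 25 JAK, STAT and SOCS genes 3 were positive and 1 negative (with the block 6 and 2), STAT2, SOCS6 (0.70, adjusted p = 0.027), PIAS1 (0.95, adjusted p = 0.0129) and SOCS2 (-1.36, adjusted p = 0.0434), with a median of 0.05. The call of SOCS6 was lost without replicate 3 of MKN1 (0.0523), and with 1 library left out the adjusted p reached 0.0729 for SOCS6 and 0.103 for SOCS2. Of 23 cholesterol synthesis genes 1 was called in each direction. TM7SF2, a sterol reductase gene, was at 25, 22.1 and 19.9 CPM and 58.7, 54.1 and 60.4 CPM in MKN7 and at 6.09, 8.49 and 7.65 CPM and 5.95, 6.34 and 8.58 CPM in MKN1 cells, a difference of 1.46 ± 0.21 (SE), adjusted p = 0.00162. INSIG1, which holds back sterol synthesis, rose in MKN1 cells and had a difference of -1.17 (adjusted p = 0.00818). Of 23 PPARA and fatty acid oxidation genes PLIN2, which coats lipid droplets, was called. It fell in MKN7 cells from 78.8, 75.5 and 103 CPM to 26.9, 22.8 and 24.6 CPM and was at 68.3, 70.8 and 80.3 CPM and 72.4, 72.1 and 72.7 CPM in MKN1 cells, where the groups overlapped, a difference of -1.78 ± 0.17 (SE), adjusted p = 9.29e-05. Of 19 Notch pathway genes 2 were positive and 2 negative, HES2 (1.86, adjusted p = 0.000304), JAG2 (1.24, adjusted p = 0.0184), DLL1 (-1.33, adjusted p = 0.0113) and JAG1 (-1.42, adjusted p = 0.0304), so ligands were called in both directions. That of JAG2 was lost without replicate 3 of MKN1 (0.0544), and with 1 library left out the adjusted p reached 0.0574 for JAG2 and 0.0772 for JAG1. Of 27 lysosome and autophagy genes 0 were called different (with the block 6 positive and 1 negative), with a median of 0.04. Of the 10 tested markers of other cell types 0 were called different, and of the 5 epithelial line markers CDH1 was. Over the alternatives the median difference changed sign in 11 of the 30 lists, among them the MAPK, mesenchymal, motility, interferon, chemokine and cholesterol lists.

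**Figure D5:**
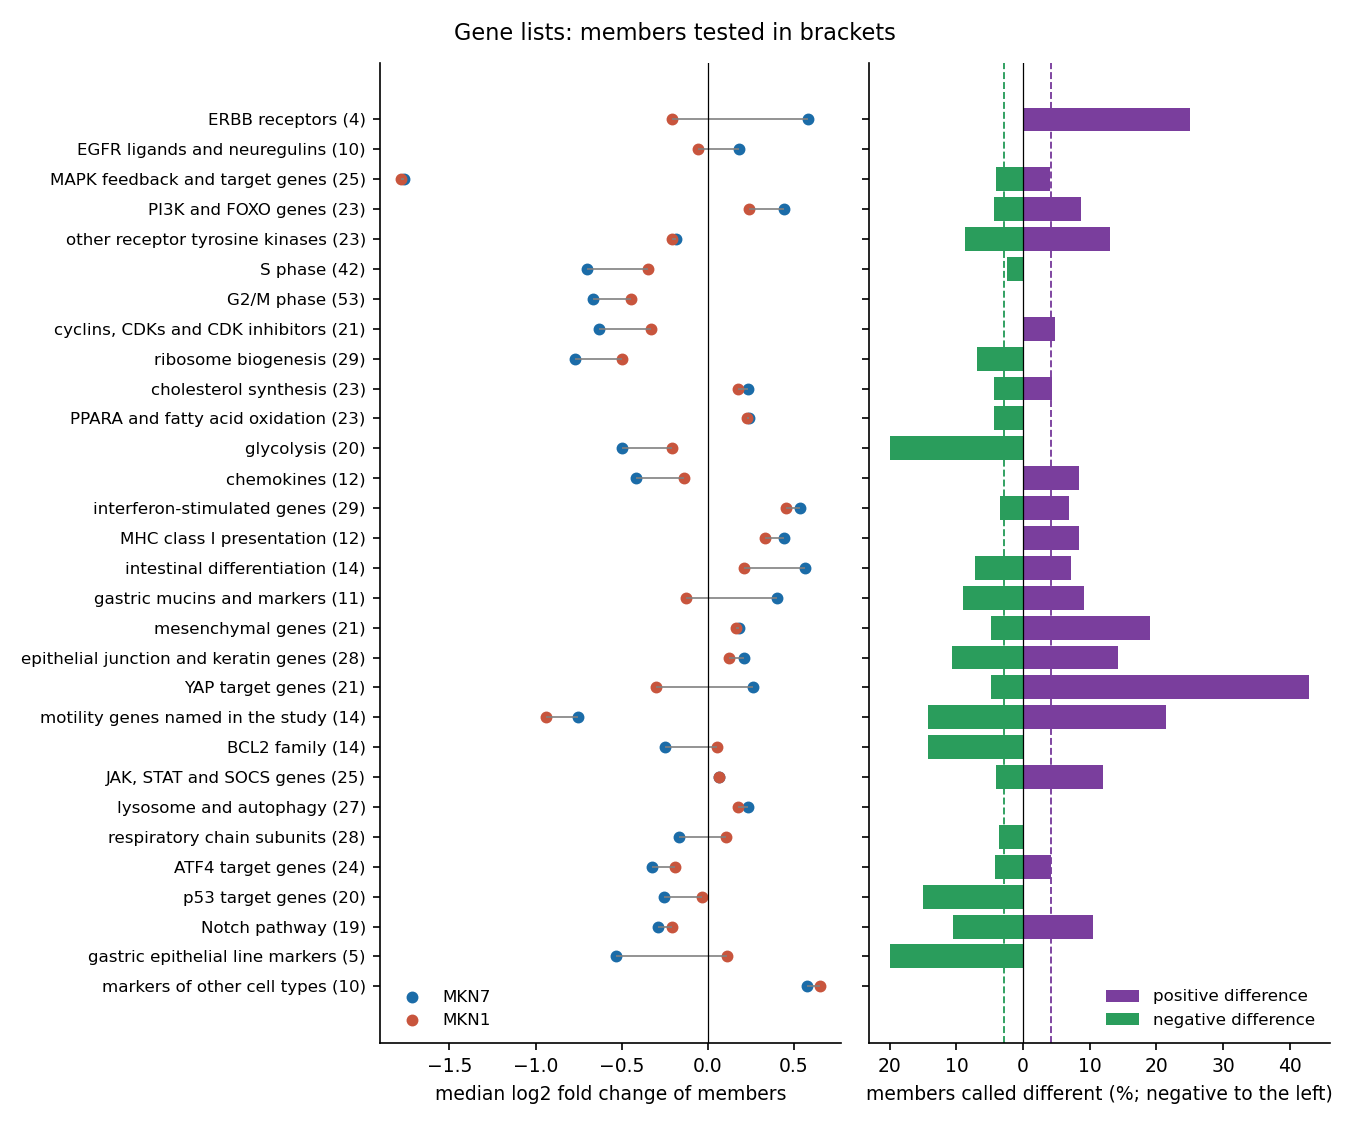
Left, the median log2 fold change (afatinib against untreated, 24 h) of the members of 30 gene lists in MKN7 (blue) and MKN1 cells (red); right, the percentage of members with a called difference, negative to the left and positive to the right, with dashed lines at the share over all genes (2.86% and 4.24%). The MAPK list lies far to the left in both lines (-1.76 and -1.78, without replicate 3 of MKN1 -1.80 and -1.42), while the YAP list has medians on either side of 0 (0.26 and -0.30) and the longest bar.

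The same contrast was measured in 12 other libraries, in which cells received trastuzumab (5 µg/ml), an antibody against HER2, with or without afatinib for 24 h. Of 19686 genes tested 889 (4.52%) were called different between the lines, 491 (2.49%) positive and 398 (2.02%) negative. Of the 1396 genes 1393 were tested there, and 1380 (99.1%) had the same sign, against 76.6% of all genes tested in both. A total of 681 genes were called in both sets with the same sign, 48.8% of the calls without and 76.6% of those with trastuzumab. TGM2 (-3.32, adjusted p = 2.4e-06), CDKN1C (2.05, adjusted p = 0.000159), ATF3 (1.76, adjusted p = 0.000593) and TNFSF15 (-3.01, adjusted p = 2.25e-05) were called in both. ERBB2 had 0.57 (adjusted p = 0.0681) and CTGF 1.27 (adjusted p = 0.0536) and did not pass. Of the ERBB receptors ERBB4 passed there (0.94, adjusted p = 0.0386). Of the 20 genes with the largest differences 18 were called, and of the 21 YAP target genes 5 were positive and 1 negative with a median of 0.48.

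After 4 h fewer genes differed between the lines. Of 18860 genes tested 376 (1.99%) were called, 185 (0.981%) positive and 191 (1.01%) negative. Of 1377 genes called at 24 h and tested at 4 h, 1113 (80.8%) had the same sign, against 58.3% of all genes. In both 145 genes were called, 10.4% of the 24 h calls and 38.6% of those at 4 h, and 144 of them had the same sign. CYR61 was called at 4 h already (1.51, adjusted p = 0.00841), as were F3 (1.21, adjusted p = 0.0297) and AMOTL2 (0.58, adjusted p = 0.0254). CYR61 and F3 are motility genes that the study chose on MKN1 cells at 4 h, so their differences at 4 h are not independent of that choice. TGM2 had a difference of -0.22 at 4 h (adjusted p = 0.772) and NT5E of -0.09 (adjusted p = 0.94). Of the 25 MAPK genes 0 were positive and 5 negative at 4 h, and of 29 ribosome biogenesis genes 0 and 6. Whether the difference itself changed between 4 h and 24 h was not tested.

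In NCI-N87, another gastric cancer cell line, afatinib for 24 h gave 5881 higher (33.4%) and 5651 lower genes (32.1%) of 17596 tested. Of the 632 genes that were higher in MKN7 cells only by the test, 555 were tested in NCI-N87 cells, where 292 were called higher and 86 lower. Of the 370 that were lower in MKN7 cells only, 345 were tested, and 232 were called lower and 41 higher. These counts stand beside the 33.4% and 32.1% of all genes called in NCI-N87 cells.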

How the data were processed

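RNA was measured in MKN7 and MKN1 cells, untreated or treated with 0.5 µM afatinib for 24 h, 3 libraries per group. Libraries were directional and sequenced from both ends, and the raw counts of 65217 Ensembl identifiers per library were deposited by the authors. The submitters' processing notes name Trim Galore, STAR and hg38, and the counting tool and annotation are not given in the sources used here. Total counts ranged from 42367058 to 58122812, and intervals and floors cover counting error only. Gene names and positions were taken from GENCODE release 29 (GRCh38). It has no entry for 8404 identifiers with 0.0501% of the counts, and 37 mitochondrial identifiers held 0 counts. Of 12 pairs of replicates none agreed within sampling noise (lowest ratio of the squared difference to the Poisson expectation 18.3).

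The counts were fitted with edgeR 4.0.16 under R 4.3.3 (TMM, filterByExpr at 10 counts and a total of 15, robust glmQLFit and glmQLFTest), using 1 mean per group and 8 residual degrees of freedom. The contrast was the afatinib effect in MKN7 minus that in MKN1 cells. A gene was called at a Benjamini-Hochberg adjusted p below 0.05 over all genes tested. Adjusted p-values in the text are those of edgeR's quasi-likelihood test, and log2 CPM used a prior count of 2. The procedure was tested on simulated counts drawn independently for each library. The simulation held no effect shared by same-numbered libraries and no deviant replicate, so it does not cover these features of the data. The trastuzumab libraries, the 4 h libraries and the NCI-N87 libraries were fitted separately in the same way.

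The genes named were the 10 with the largest difference in each direction among called protein-coding genes at 1 CPM or more in each line whose 3 pairs did not overlap between the lines, 4 genes of each direction with opposite effects, all ERBB receptors and ligands, and of each other list the pair of genes with the smallest adjusted p in each direction. Further called members of short counts were named after their values were seen. Some genes that meet these rules are counted in their lists but not reported here by name. The members and the 30 gene lists were chosen with earlier results of these data known, and lists are described by counts and medians. Promoters were taken from RefSeq (GRCh38.p14).

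Replicate numbers come from the sample labels. Deviations from the group mean were correlated between the untreated and the afatinib library of the same number over 12428 genes, with Pearson's r of 0.59, 0.61 and 0.49 in MKN7 and 0.46, 0.65 and 0.22 in MKN1 cells, so the numbers were taken to pair the samples, and each result was also computed with a replicate block (4 residual degrees of freedom). Other alternatives were DESeq2 1.42.0, all 66 libraries of both lines in 1 fit, scaling without TMM, no expression filter, a stricter filter of 10 counts in all libraries and leaving out each library in turn. Plots were made in matplotlib 3.10.9 (Python 3.11.15).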

Additional observations from a re-analysis of the deposited data

Results flagged for a closer look

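The afatinib effect differed between MKN7 and MKN1 cells by the test of the difference for 1396 genes. Among them, 8 genes that moved in opposite directions in the lines stand out by the size of both changes. Of those that were higher in MKN7 and lower in MKN1 cells, the difference on the log2 scale was 2.05 for ATF3, 2.39 for ENSG00000226434, 2.11 for GATA6 and 2.02 for CYP26B1. Of those that were lower in MKN7 and higher in MKN1 cells, it was -3.10 for ADAMTS9, -2.54 for MPZL2, -2.85 for TNFSF15 and -1.87 for LINC01843. All 8 differences had the same sign in the trastuzumab libraries and passed the threshold there, from 2.25e-05 for TNFSF15 to 0.0346 for LINC01843 in adjusted p. Without replicate 3 of MKN1 all 8 differences were still called, while the change in MKN1 cells was called for ATF3 and TNFSF15 and not for the other 6 genes, with adjusted p from 0.0598 for LINC01843 to 0.189 for ENSG00000226434. With 3 libraries per group, no outlier test was applied to the values of single genes.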

How the results depend on the processing

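Of 96 genes chosen for naming, a set that is not identical to the genes given above, 83 were called different. Of these 83, none changed sign under any alternative, and 83 were called with DESeq2, 83 with the replicate block, 82 with all 66 libraries of both lines in 1 fit, 79 by library size alone, 79 of 80 with a value under the stricter filter, 76 with no filter and 71 without replicate 3 of MKN1, an alternative chosen after seeing the data. With 1 library left out 63 to 80 of the 83 were called, fewest without the afatinib replicates 2 (63) and 1 (66) of MKN7. With the replicate block the positive genes went from 834 to 2192, the negative ones from 562 to 1745 and the opposite ones from 120 to 448, the genes called in MKN1 cells from 3449 to 6778, the trastuzumab calls from 491 to 1075 and from 398 to 895, and the 4 h calls from 185 to 1592 and from 191 to 1406. All 66 libraries in 1 fit gave 1437 positive, 1221 negative and 193 opposite genes. DESeq2 gave 1112 positive and 1094 negative genes, 811 negative genes in the trastuzumab libraries, and 385 positive and 438 negative genes at 4 h. The stricter filter gave 695 positive and 766 negative genes, and no filter 658 and 671. Without replicate 3 of MKN1, 584 positive and 550 negative genes were called, and 886 of the 1396 genes were still called. In that fit 398 genes were called in MKN1 cells and 20 in opposite directions. With 1 library left out the counts were 455 to 884 positive, 314 to 726 negative, 521 to 930 with an absolute difference above 1, 53 to 124 opposite, 1294 to 3854 in MKN1 and 6182 to 8315 in MKN7 cells, and 212 to 504, 218 to 417, 77 to 150 and 85 to 184 for the positive and negative genes of the trastuzumab and the 4 h libraries. Positive genes fell most without the untreated replicate 1 of MKN1 (552), the untreated replicate 3 of MKN7 (540) and the afatinib replicates 1 and 2 of MKN7 (463 and 455), and negative ones without the latter (333 and 314). Fits with fewer libraries have fewer residual degrees of freedom, and other causes were not tested.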
